A study of Homo sapiens with 5 samples.

Results

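The nuclear genes for subunits of the mitochondrial respiratory chain and ATP synthase were followed in xenograft tumours grown under 4 diets. Members were chosen by symbol, with the name patterns NDUFA, NDUFB, NDUFC, NDUFS and NDUFV, SDHA to SDHD, UQCR, numbered COX subunits and ATP5, and by a mean of at least 10 counts over the 5 libraries. Of 26364 genes listed, 85 matched the names and 75 reached the minimum: 37 of complex I, 4 of complex II, 8 of complex III, 10 of complex IV, 15 of complex V and ATP5SL, which is no subunit. NDUFA4 is named for complex I but was counted with complex IV, where its protein sits. The patterns leave out COX4I1 and CYC1, which are given separately. The 10 matching symbols under the minimum include the muscle isoforms COX6A2 and COX7A1, both at 0 counts in every library.

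The tumours came from HT-29, an established human colon cancer line, implanted under the skin of female NOD SCID mice, which lack T and B cells and were 5 weeks old when obtained. The mice ate normal food (1 library), food lacking methionine (2 libraries, replicates 1 and 2), food lacking tryptophan and niacin (1 library) or food lacking all 3 (1 library, here the combined omission), for 2 weeks. The study's design text also names a longer intended period. The labels do not say whether the methionine-free pair came from separate mice. With 1 mean fitted per diet, the p-values thus measure only the spread between those samples. That spread may be technical, and edgeR shared it across genes. In an additive model, also fitted, each omission adds a fixed amount, and departures of the diets from that sum enter the spread too. Titles of the normal and combined libraries follow one style and those of the other 3 libraries another, and diet cannot be told apart from handling if the styles mark a difference.

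Complexes I and II pass electrons from NADH and succinate to ubiquinone, complex III hands them to cytochrome c, and complex IV gives them to oxygen. Complexes I, III and IV pump protons across the inner mitochondrial membrane, and complex V uses that gradient to make ATP. Complex II, which is also an enzyme of the citric acid cycle, is encoded wholly in the nucleus, whereas the other complexes also hold subunits from the mitochondrial genome, not analysed here.

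Library totals ran from 433930 counts in the combined omission to 1088084 on normal food, so that 1 count was worth 0.909 to 2.27 CPM, the count scaled to library size with edgeR's TMM factors. All 11 colon epithelial markers were detected in every library, summing to 12595 to 15466 CPM, while summed markers reached at most 20.4 CPM for fibroblasts, 47.6 for endothelium, 62.7 for macrophages, 19.3 for adipocytes and 121 for skeletal muscle, and red cell genes were at 0. Myosin genes of skeletal muscle, of nearly the same sequence (MYH1, MYH2, MYH4), stood at 21.7, 24.0 and 18.8 CPM in the tryptophan/niacin-free library and at no more than 1.49 CPM in any other. In bulk tumour RNA, fewer cells of a type and less RNA per cell cannot be told apart.

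The members together were most abundant in methionine-free replicate 2. They made up 0.680% of the counts on normal food, 0.815% and 1.11% in methionine-free replicates 1 and 2, 0.746% without tryptophan and niacin and 0.663% in the combined omission. Relative to normal food, their summed CPM was 1.20 times as high in replicate 1 (95% counting interval 1.16 to 1.25) and 1.78 times in replicate 2 (1.72 to 1.84). It was 1.07 times as high without tryptophan and niacin (1.03 to 1.11) and 0.970 times in the combined omission (0.929 to 1.01). Both methionine-free libraries thus lay above the other 3, but the 2 replicates differed from each other by a factor of 1.48 (1.42 to 1.53), more than replicate 1 differed from normal food. These intervals cover counting error only.

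**Figure D1:**
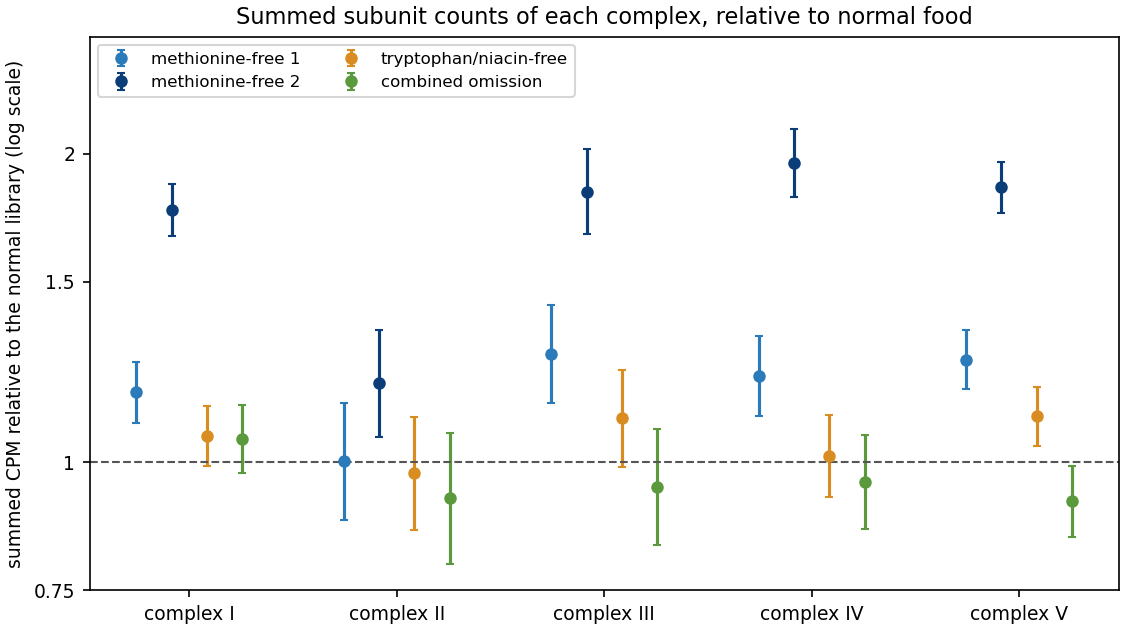
Summed CPM of the subunit genes of each complex relative to the normal library, on a log axis, with 95% counting intervals; each point is 1 library. Methionine-free replicate 2 is the highest point for every complex, and complex II, at 1.19, is the least raised there.

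Complex II had the smallest ratios to normal food in the methionine-free libraries. Its summed CPM relative to normal food was 1.00 in replicate 1 (0.877 to 1.14) and 1.19 in replicate 2 (1.06 to 1.35), against 1.17 and 1.76 for complex I, 1.28 and 1.84 for complex III, 1.21 and 1.96 for complex IV and 1.26 and 1.85 for complex V. SDHA, the flavoprotein that oxidises succinate, supplied 425 of the 681 complex II counts on normal food and 195 of 466 in replicate 2. Its values were 386 CPM on normal food, 360 and 310 in replicates 1 and 2, 316 without tryptophan and niacin and 348 in the combined omission. It was the only subunit gene of complex II below normal food in both methionine-free libraries, and its counts carry decimals. SDHA has near-identical pseudogene copies, so its level is uncertain. SDHB, the iron-sulfur subunit, stood at 63.6, 89.6, 138, 84.7 and 63.5 CPM in the same order. The membrane anchors SDHC (88.2, 82.4, 163, 115 and 90.8 CPM) and SDHD (80.9, 87.8, 128, 87.8 and 70.3 CPM) were likewise highest in replicate 2. In that library SDHA was thus below its level on normal food while the other 3 subunit genes were above theirs.

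Most members lay above their level on normal food in the methionine-free libraries. Both methionine-free libraries lay above normal food for 56 of 75 members and below it for 2 (over all 10005 genes tested 34.7% lay above and 35.6% below). By complex these were 24 of 37 for complex I, 2 of 4 for complex II, 7 of 8 for complex III, 9 of 10 for complex IV and 13 of 15 for complex V. The median difference in log2 CPM was 0.50 over the members, 71 of them above 0, beside −0.01 over all genes. By complex it was 0.42, 0.38, 0.55, 0.60 and 0.63 for I to V. The 7 core subunits of complex I among the members, which carry its flavin and iron-sulfur clusters, had a median of 0.30, and its 30 accessory subunits one of 0.49. With transcript length corrected, as described further on, this order turned round, to 0.26 for the core and 0.11 for the accessory subunits.

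**Figure D2:**
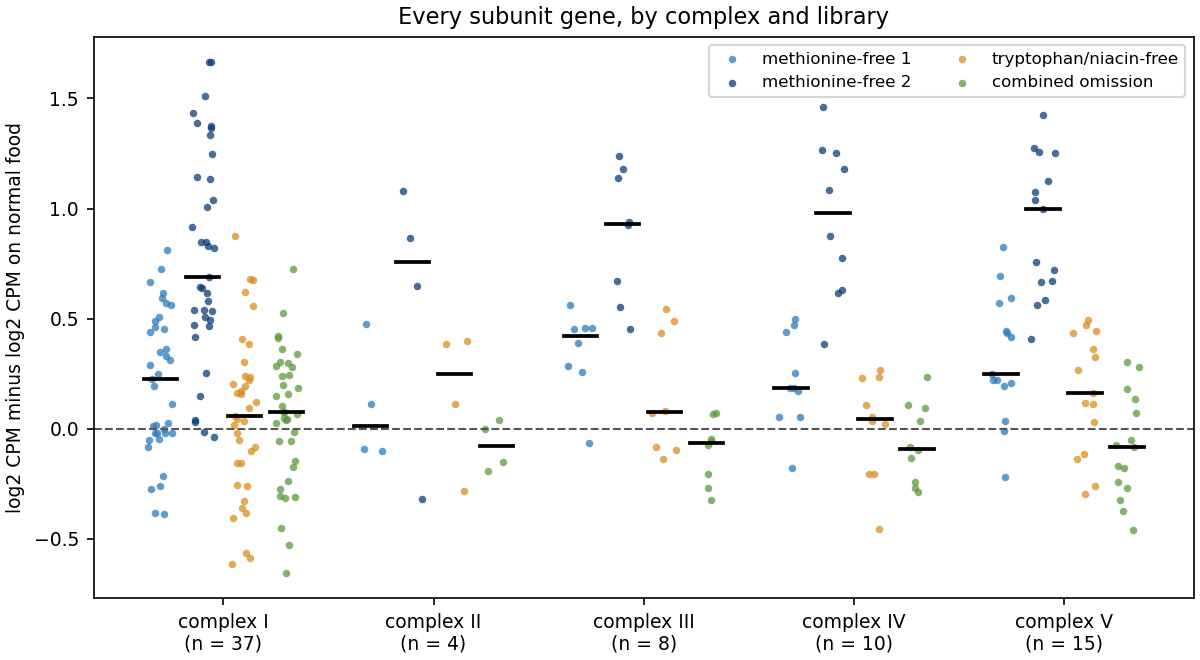
Difference in log2 CPM from normal food for every subunit gene, 1 point per gene and library, with the median of each library as a bar. The points of methionine-free replicate 2 lie almost wholly above 0, those of replicate 1 straddle it with medians above 0, and those of the other 2 diets centre near 0.

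No single member passed edgeR's quasi-likelihood test with Benjamini-Hochberg adjustment in this comparison: 0 of 75 were higher and 0 lower (background 0% and 0.23% of all genes). At an unadjusted p under 0.05, 19 members were higher and 0 lower (background 2.47% and 5.21%). These 19 comprised 9 genes of complex I, 1 of complex II and 3 each of complexes III, IV and V. DESeq2 and limma-voom also called 0 members after adjustment, with 0 and 17 higher before it. The median standard error of a member's log2 fold change was 0.43 (range 0.41 to 0.61). It rests on a spread shared across genes, not on that of each gene's own replicates. In simulated libraries of this size the test recovered 9.28% of 2-fold and 68.8% of 4-fold changes. Changes of 2-fold were thus mostly not detectable with these libraries.

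Among complex I genes, NDUFAB1 had the smallest p. It encodes the mitochondrial acyl carrier protein, which serves in complex I and in fatty acid and lipoic acid synthesis. Its values were 40.0 CPM on normal food, 68.1 and 133 in methionine-free replicates 1 and 2, 65.9 without tryptophan and niacin and 68.1 in the combined omission. Normal food was thus the lowest library and the other 4 all lay above it (methionine-free against normal: log2 fold change 1.34, SE 0.438, edgeR adjusted p = 0.281). NDUFB5, an accessory membrane subunit, stood at 20.0, 32.3, 69.8, 39.2 and 25.0 CPM (1.36, SE 0.494, edgeR adjusted p = 0.418). NDUFA11, an accessory subunit that holds the membrane arm together, stood at 50.9, 77.1, 143, 32.9 and 63.5 CPM, highest in replicate 2 and lowest without tryptophan and niacin. NDUFS3, a core subunit of the arm that joins NADH oxidation to quinone reduction, stood at 57.3, 87.8, 152, 56.5 and 59.0 CPM. The other 3 libraries lay between 56.5 and 59.0 CPM for NDUFS3, and both methionine-free libraries were above them (mean 120 ± 45.6 CPM, SD, n = 2).

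Other core subunits of complex I did not share that order. NDUFV1, which binds NADH and flavin, stood at 173, 211, 206, 144 and 211 CPM, so that the combined omission matched the methionine-free libraries. NDUFS1, the large iron-sulfur subunit, stood at 103, 97.7, 114, 135 and 70.3 CPM, highest without tryptophan and niacin and lowest in the combined omission. NDUFS7, which carries an iron-sulfur cluster, stood at 25.5, 21.5, 41.2, 18.8 and 22.7 CPM. The members with the lowest methionine-free values against normal food, after SDHA, were NDUFB3 (33.6, 25.1, 33.3, 36.1 and 36.3 CPM; log2 fold change −0.20) and NDUFA8 (39.1, 39.4, 38.1, 29.8 and 31.8 CPM; −0.01), both accessory subunits. The accessory subunit NDUFS4 hardly varied, at 37.3, 35.8, 38.1, 34.5 and 38.6 CPM.

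In complex III, the Rieske iron-sulfur protein gene UQCRFS1 stood at 71.8, 108, 162, 102 and 56.7 CPM, with the combined omission lowest and both methionine-free libraries highest. The core protein UQCRC1 stood at 113, 108, 219, 105 and 109 CPM, so that only replicate 2 departed from the rest. Its partner UQCRC2 stood at 158, 190, 254, 149 and 152 CPM, with both methionine-free libraries on top. CYC1, the cytochrome c1 gene that the name pattern leaves out, had 115, 190, 238, 130 and 123 CPM, again with both methionine-free libraries on top.

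In complex IV, all 10 members were highest in methionine-free replicate 2. COX5B, a matrix-side subunit, stood at 87.3, 98.6, 214, 62.7 and 79.4 CPM, and COX5A, next to it in the enzyme, at 102, 122, 219, 87.8 and 84.0 CPM. In both genes replicate 1 lay near normal food and replicate 2 far above, while the other 2 diets lay below normal food. COX7B (86.4, 98.6, 243, 102 and 88.5 CPM) and NDUFA4 (83.6, 73.5, 194, 98.8 and 68.1 CPM) rested even more on replicate 2. COX7C stood at 138, 158, 216, 149 and 163 CPM and COX6C at 67.3, 69.9, 88.8, 81.6 and 72.6 CPM, the latter the narrowest range in the complex. COX4I1, the subunit outside the pattern, had 225, 249, 398, 174 and 204 CPM, and its hypoxia isoform COX4I2 was at 0 counts everywhere.

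The tumours used the general forms of the complex IV subunits that have tissue isoforms. COX6A1 stood at 199, 271, 368, 204 and 168 CPM, COX6B1 at 180, 251, 278, 187 and 168, COX7A2 at 104, 108, 179, 89.4 and 97.6 and COX8A at 108, 154, 262, 110 and 116. The muscle forms COX6A2 and COX7A1 and the testis form COX7B2 had 0 counts in every library, which allows at most 2.73 CPM on normal food and 6.81 CPM in the combined omission. COX6B2 and COX8C had at most 1 count in any library.

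In complex V, the catalytic beta subunit gene ATP5B stood at 520 CPM on normal food, 600 and 858 in methionine-free replicates 1 and 2, 582 without tryptophan and niacin and 490 in the combined omission. ATP5A1, the alpha subunit, stood at 245, 333, 325, 265 and 216 CPM, and its replicates nearly coincided (mean 329 ± 5.76 CPM, SD, n = 2). The gamma subunit ATP5C1, which turns inside the catalytic head, stood at 139, 211, 281, 168 and 107 CPM. ATP5A1 and ATP5C1 were among several members with one order: both methionine-free libraries highest, then tryptophan/niacin-free, normal and combined. ATP5B, ATP5J2 and, in complex III, UQCRFS1 had it too. The same protein of the rotor ring is made from 3 genes, and these stood at 51.8, 60.9, 113, 67.4 and 63.5 CPM for ATP5G1, at 194, 222, 309, 179 and 163 for ATP5G2 and at 101, 165, 244, 141 and 111 for ATP5G3. ATP5J2, a membrane subunit, stood at 83.0, 148, 227, 114 and 67.9 CPM (methionine-free against normal: log2 fold change 1.18, SE 0.433, edgeR adjusted p = 0.428). It overlaps a read-through gene, ATP5J2-PTCD1, at 59.2, 75.6, 113, 71.4 and 48.2 CPM, and its counts carry decimals, so that its level is uncertain. ATP5O, in the stalk, stood at 71.8, 84.2, 151, 98.8 and 56.7 CPM. ATP5SL, the member that is no subunit, stood at 48.2, 60.9, 68.2, 70.6 and 49.9 CPM.

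**Figure D3:**
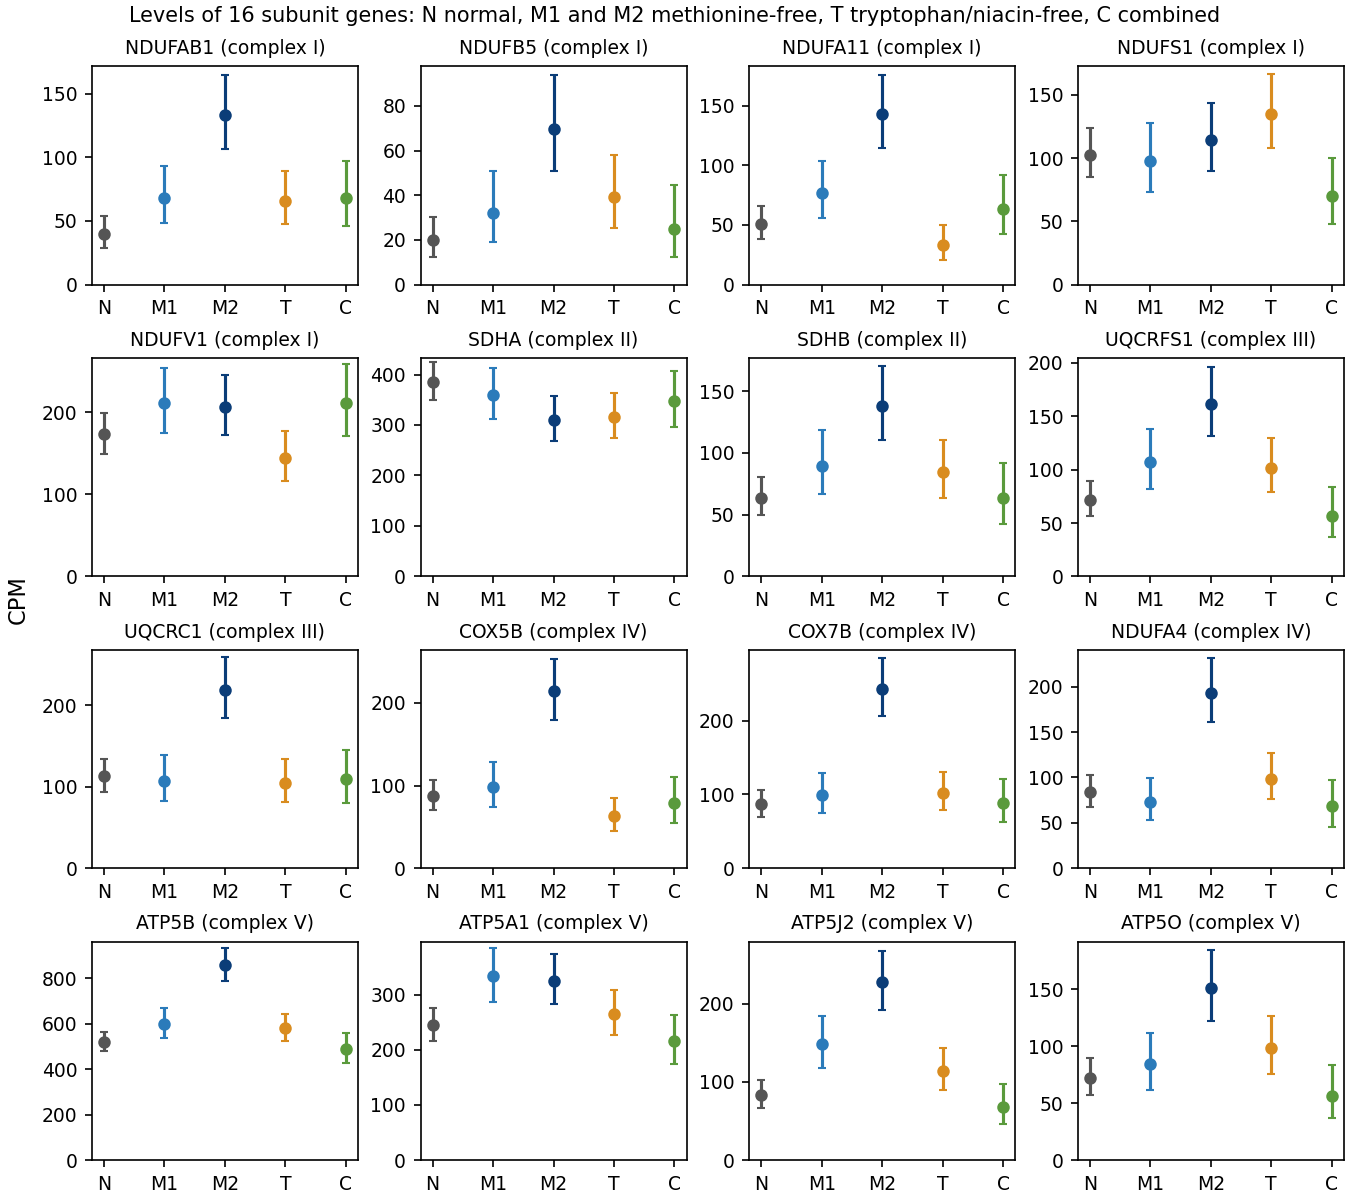
CPM in each library for 16 genes, with 95% counting intervals; each panel has its own axis from 0. Methionine-free replicate 2 is the highest point in all panels except those of NDUFS1, NDUFV1, SDHA and ATP5A1.

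Replicate 2 and short transcripts moved with this result. Replicate 2 was above replicate 1 for 69 of 75 members, with a median difference in log2 CPM of 0.60, and it was the highest of the 5 libraries for 64. A size rule for comparing lone libraries asks for at least a 2-fold difference and a 95% counting interval of the ratio that excludes 1. By it, 9 members were higher in replicate 2 than in replicate 1 and 0 lower (background 2.43% and 4.17% of all genes), namely ATP5L, NDUFB1, NDUFA3, COX5B, UQCRC1, NDUFB5, NDUFA2, NDUFA4 and COX7B. Of those not given above, ATP5L stood at 183 and 371 CPM in replicates 1 and 2, NDUFA3 at 39.4 and 92.0, NDUFA2 at 39.4 and 82.5, and NDUFB1 at 10.8 and 36.5, the last on 6 and 23 counts. Without replicate 2 the members' median against normal food was 0.25, and without replicate 1 it was 0.83. Member transcripts are short, with a median annotated length of 930 bases, and 59 of the 75 fell in the shortest of 4 equal length groups of all genes. That group had a median of 0.13 in replicate 1 and 0.49 in replicate 2 against normal food, and the longest group had −0.10 and −0.45. Without tryptophan and niacin, and in the combined omission, the medians of all 4 groups lay within 0.02 of 0.

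After a smooth trend with transcript length was removed from each library, the members' median was 0.25, with 56 of 75 above 0, and 10 were higher and 0 lower at an unadjusted p under 0.05 (background in the same fit 3.26% and 5.48%). The corrected medians were 0.14, 0.28, 0.36, 0.20 and 0.29 for complexes I to V, so that complex III then had the largest. Members of at least 1000 bases kept a median of 0.41 in place of 0.45, whereas the 42 shorter ones had 0.10 in place of 0.56. These lengths are annotated ones, among them 13566 bases for SDHC, 8363 for NDUFA9 and 5575 for UQCRB. Whether the transcripts in the tumours had such lengths was not tested. The correction and the split by length depend on the annotation, and a wrong length would misplace a gene in both. Cytosolic ribosomal protein genes, also short, had 0.54 before and 0.16 after the correction. How far replicate 2 and transcript length carry the members' difference was not tested beyond these values.

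**Figure D4:**
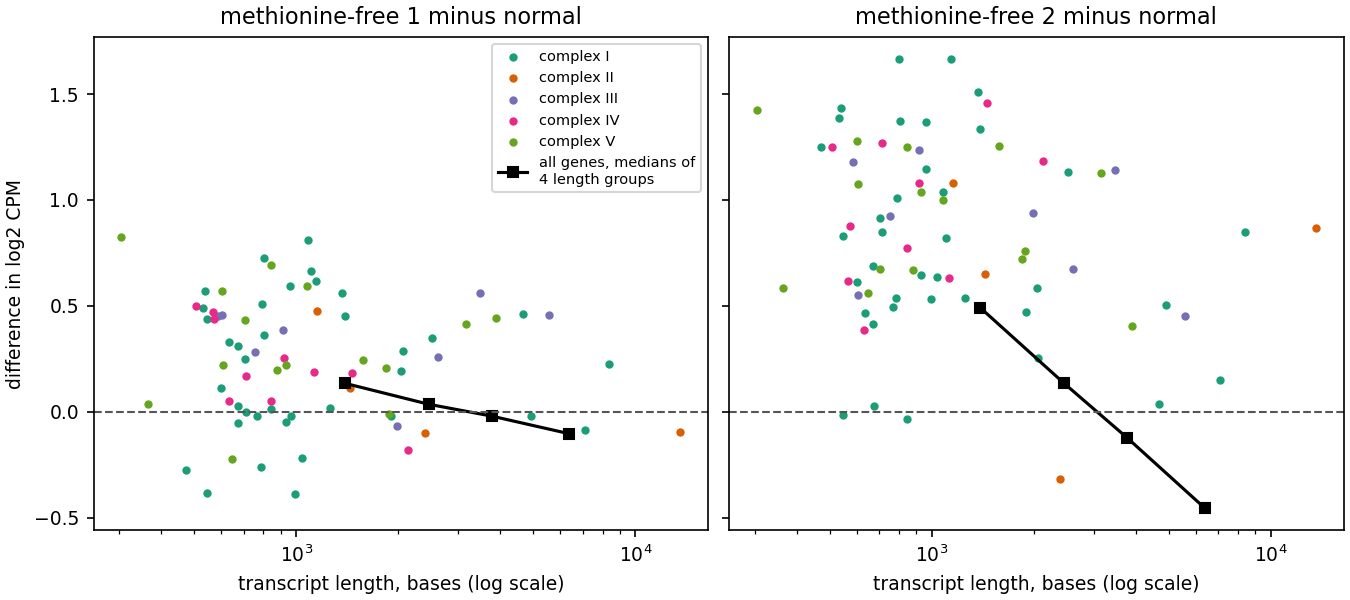
Difference in log2 CPM from normal food against annotated transcript length (log axis) for each subunit gene, in methionine-free replicates 1 and 2; squares are medians of all genes in 4 length groups. The medians run from 0.49 to −0.45 in replicate 2 and from 0.13 to −0.10 in replicate 1.

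With methionine absent, the library that also lacked tryptophan and niacin had lower member values than the methionine-free pair. The median difference in log2 CPM was −0.57, with 7 of 75 above 0 (all genes 0.00), and −0.48, −0.46, −0.73, −0.78 and −0.67 for complexes I to V. By edgeR 0 members passed in either direction (background 0.03% higher, 0% lower), and at an unadjusted p under 0.05, 13 were lower (background 2.94%) and 0 higher (4.65%), with 5 of the 13 in complex IV and 4 in complex V. DESeq2 and limma-voom called 0 after adjustment and 2 and 11 before it. The smallest p belonged to ATP5J2, whose combined value of 67.9 CPM was under both methionine-free values, 148 and 227 (log2 fold change −1.46, SE 0.481, edgeR adjusted p = 0.326). UQCRFS1, at 56.7 CPM against 108 and 162, followed (−1.25, SE 0.479, edgeR adjusted p = 0.520), and then ATP5C1, at 107 against 211 and 281 (−1.21). The 3 members with the highest values were NDUFB3 (0.31), NDUFB8 (0.30) and NDUFS4 (0.06), all accessory subunits of complex I. Without replicate 2 the median was −0.29, and with length corrected it was −0.23. Cytosolic ribosomal protein genes, also short, had a similar median of −0.54, with 0 of 81 above 0, and −0.17 with length corrected.

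The tryptophan/niacin-free library also lay below the methionine-free pair. The median was −0.46 with 5 of 75 above 0 (all genes 0.01), without replicate 2 it was −0.13, and with length corrected −0.09. Cytosolic ribosomal protein genes had −0.67, with 1 of 81 above 0, and −0.30 with length corrected. By edgeR 0 members passed (background 0% in both directions), and at an unadjusted p under 0.05, 6 were lower (background 2.32%) and 0 higher (2.59%). DESeq2 and limma-voom called 0 after adjustment, with 1 and 5 lower before it. NDUFA11 had the smallest p, at 32.9 CPM against 77.1 and 143 (log2 fold change −1.74, SE 0.483, edgeR adjusted p = 0.445). COX5B stood at 62.7 CPM against 98.6 and 214 (−1.32, SE 0.454, edgeR adjusted p = 0.805) and NDUFS3 at 56.5 against 87.8 and 152 (−1.09). On the other side NDUFS1 had 0.35 and NDUFB3 0.30. Both comparisons, and that with normal food, share the methionine-free libraries.

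The interaction term asks whether the difference made by leaving out methionine was the same with and without tryptophan and niacin in the food. It sets the normal and combined libraries against the methionine-free and tryptophan/niacin-free ones, which is also the split of the title styles. It therefore cannot be told apart from handling if the styles mark a difference. Its median over the members was −0.75, with 9 of 75 above 0, beside −0.02 over all genes, and it draws on all 5 libraries. By edgeR 0 members passed (background 0.42% higher, 0.01% lower), and at an unadjusted p under 0.05, 7 were lower (background 1.95%) and 0 higher (4.50%). DESeq2 and limma-voom called 0 after adjustment, with 0 and 7 lower before it. ATP5J2 (−1.91, SE 0.688, edgeR adjusted p = 0.349), UQCRFS1 (−1.75, SE 0.679, edgeR adjusted p = 0.461) and NDUFB5 (−2.01, SE 0.811, edgeR adjusted p = 0.544) had the smallest p. For UQCRFS1 the values were 71.8 CPM on normal food against 108 and 162 without methionine, and 102 without tryptophan and niacin against 56.7 without all 3. Leaving out methionine thus went with higher values in the first pair of diets and a lower one in the second, without passing the test.

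An additive model averaged each omission over the other. It assumes that the omissions do not interact, whereas the members' median interaction was −0.75. Any interaction enters its spread, so that a lack of calls cannot show that an omission made no difference in 1 of the diets. By edgeR the additive model called 0 members for either omission (background 0% in each direction). DESeq2 and limma-voom also called 0. At an unadjusted p under 0.05, 1 member was higher for methionine omission, NDUFA11 (log2 fold change 1.05; background 0.84%), and 0 were lower (0.88%). For tryptophan and niacin omission 0 were higher and 0 lower (background 0.87% and 0.77%), the smallest p belonging to NDUFA7 (−0.77), COX5B (−0.76) and NDUFA11 (−0.72).

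Between the lone libraries no member differed by the size rule, and there was no replicate check. The tryptophan/niacin-free library had a median difference from normal food of 0.11, with 49 of 75 above 0, and 0 members beyond the rule (background 1.01% higher, 2.51% lower). Its extremes were NDUFA5, an accessory subunit of complex I, at 29.8 against 47.3 CPM (ratio 0.630, interval 0.352 to 1.08), and NDUFB5, at 39.2 against 20.0 CPM (1.96, 1.06 to 3.65). The combined omission had a median of 0.00, with 37 of 75 above normal food and 0 beyond the rule (background 0.95% and 1.07%). Its extremes were NDUFA7, at 27.2 against 44.5 CPM (0.611, 0.296 to 1.17), and NDUFAB1 (1.70, 1.03 to 2.77). The tryptophan/niacin-free library is the one with muscle myosin counts, while the muscle isoforms COX6A2 and COX7A1 were at 0 counts in it. In both lone libraries the members' medians thus lay close to normal food, while the extreme genes did not. With background shares this small, 0 of 75 members beyond the rule is near background. Complex V stood at 1.11 times its summed CPM on normal food without tryptophan and niacin (1.04 to 1.18). In the combined omission complex V stood at 0.916 times (0.846 to 0.992). The intervals of the other complexes included 1.

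Set against the tryptophan/niacin-free library, the combined omission had a median of −0.15, again with 0 members beyond the rule (background 2.30% and 1.74%). Complex V was lowest, at 0.827 times in summed CPM (0.759 to 0.901), then complex III at 0.857 (0.744 to 0.986), whereas complex I was at 0.993 (0.913 to 1.08). NDUFS1 was the lowest single gene, at 70.3 against 135 CPM (ratio 0.521, 0.334 to 0.795), followed by UQCRFS1 (0.556, 0.336 to 0.895) and ATP5O (0.574, 0.346 to 0.926). NDUFA11 was the highest (1.93, 1.06 to 3.57). Across the 75 members, the difference that tryptophan and niacin omission made with methionine present and that made with it absent, which share no library, had Pearson's r of −0.24 and Spearman's rho of −0.21, near the −0.20 and −0.17 over all genes, which are not independent replicates.

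Lists of genes that build or feed the chain had median log2 CPM differences between methionine-free and normal food of 0.18 to 0.47, beside 0.50 for the subunits. With length corrected the subunits' 0.25 was not the highest. Complex I assembly factors had a median of 0.22 (8 of 14 above 0; 0.07 with length corrected) and assembly factors of complexes II to V one of 0.46 (27 of 31; 0.33). Mitochondrial protein import genes had 0.47 (24 of 25; 0.24), citric acid cycle and pyruvate entry genes 0.22 (17 of 20; 0.16) and regulators of mitochondrial biogenesis 0.18 (9 of 15; 0.29). None of these genes passed edgeR's test in either direction, and DESeq2 and limma-voom also called 0 of them. By edgeR at an unadjusted p under 0.05, 4 of the 31 assembly factors of complexes II to V (12.9%) and 3 of the 25 import genes (12.0%) were higher, 0 of the other 3 lists were, and 0 of any list were lower (background 2.47% higher and 5.21% lower). Limma-voom gave the same counts and DESeq2 gave 0. Of the regulators, TFAM, which packages and transcribes mitochondrial DNA, stood at 62.7, 77.1, 96.8, 69.0 and 81.7 CPM. ESRRA, a nuclear receptor that drives respiratory genes, stood at 89.5, 125, 173, 98.8 and 93.0 CPM. NRF1, a transcription factor of many subunit genes, stood at 23.6, 37.6, 25.4, 18.8 and 15.9 CPM, and the coactivator PPARGC1A was at 0 counts in all 5 libraries. Other regulators lay under normal food in both methionine-free libraries, among them POLG, GABPA, POLRMT, PPRC1 and GABPB1. POLG stood at 130, 95.9, 61.9, 131 and 166 CPM and GABPA at 30.0, 17.9, 26.6, 23.5 and 23.8 CPM.

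A list of respiration inhibitors and hypoxia isoforms was mixed, with 6 of 10 members above normal food in the methionine-free pair and a median of 0.18 (−0.16 with length corrected). By edgeR 0 passed after adjustment. At an unadjusted p under 0.05, 1 was higher (10%) and 3 lower (30%), beside 2.47% and 5.21% of all genes. Limma-voom gave 1 higher and 2 lower, and DESeq2 gave 0 of either. In the tryptophan/niacin-free library against the methionine-free pair, edgeR had 4 lower (40%) and 0 higher before adjustment, beside 2.32% and 2.59%. ATPIF1, the inhibitor of ATP synthase, stood at 106, 122, 143, 129 and 97.6 CPM, and HIGD1A, a hypoxia-induced protein that binds complex IV, at 34.5, 57.3, 79.3, 64.3 and 59.0, both highest in replicate 2. NDUFA4L2, a hypoxia-induced relative of NDUFA4, stood at 165 CPM on normal food, 82.4 and 98.3 in methionine-free replicates 1 and 2, 18.8 without tryptophan and niacin and 138 in the combined omission. NDUFA4 itself had its highest value in replicate 2, where NDUFA4L2 was under its level on normal food. The interaction term of NDUFA4L2 was higher, at 3.73 (SE 0.714, edgeR adjusted p = 0.000184), while its adjusted p was 0.726 by DESeq2. PDK1, the kinase that blocks pyruvate entry, stood at 114, 66.3, 61.9, 29.8 and 84.0 CPM.

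Promoters were read to see what the members share that their names do not give. RefSeq promoters (GRCh38.p14) were matched for 62 of the 75, and the 250 bases before the annotated start were searched on both strands. The NRF1 motif, whose letters are the capitals in the SDHA promoter shown here with the sixth base free, was present in 13 of 62 (21.0%), against 5.53% of 27303 promoters and 11.8% of those of genes tested here. The motif of GABPA, or NRF2, CCGGAAG, was present in 16 (25.8%, against 8.82% and 17.8%). The YY1 motif and the ERRA motif TNAAGGTCA were each present in 1 (1.61%, against 0.359% of all promoters and 0.627% of those of genes tested for YY1, and 0.850% and 0.369% for ERRA). The hypoxia response core ACGTG was present in 15 (24.2%, against 18.7% and 24.7%). The methionine-free median against normal food was 0.54 with and 0.49 without the NRF1 motif, and 0.63 with and 0.45 without the GABPA motif. A match is a description of letters and not of binding.

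Of the genes described above, 4 promoters are shown, picked after their values were seen: NDUFAB1, with the smallest p on methionine-free food, NDUFA11 and COX5B, with the smallest against it without tryptophan and niacin, and SDHA, which lay under normal food in both methionine-free libraries. They lie on GRCh38.p14 at chr16:23596317-23596566 (minus strand), chr19:5903791-5904040 (minus), chr2:97645812-97646061 (plus) and chr5:218070-218319 (plus). Each is written 5′ to 3′ and ends at the base before the start, and capitals mark a match to the NRF1 or GABPA motif on either strand.
NDUFAB1: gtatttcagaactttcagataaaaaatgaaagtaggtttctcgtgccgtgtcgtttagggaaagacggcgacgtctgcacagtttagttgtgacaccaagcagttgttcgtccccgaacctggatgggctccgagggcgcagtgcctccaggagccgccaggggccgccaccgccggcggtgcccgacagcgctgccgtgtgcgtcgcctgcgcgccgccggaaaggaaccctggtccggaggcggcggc
NDUFA11: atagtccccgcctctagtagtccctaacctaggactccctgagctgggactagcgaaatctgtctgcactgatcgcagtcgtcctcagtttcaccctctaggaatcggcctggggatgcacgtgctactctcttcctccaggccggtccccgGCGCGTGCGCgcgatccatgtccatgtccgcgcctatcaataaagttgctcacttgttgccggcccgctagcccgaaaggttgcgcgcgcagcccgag
COX5B: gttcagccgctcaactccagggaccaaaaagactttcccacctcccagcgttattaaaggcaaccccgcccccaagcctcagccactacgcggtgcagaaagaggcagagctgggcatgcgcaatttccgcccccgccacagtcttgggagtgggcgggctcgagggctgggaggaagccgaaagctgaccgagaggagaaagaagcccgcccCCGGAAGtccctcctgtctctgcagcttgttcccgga
SDHA: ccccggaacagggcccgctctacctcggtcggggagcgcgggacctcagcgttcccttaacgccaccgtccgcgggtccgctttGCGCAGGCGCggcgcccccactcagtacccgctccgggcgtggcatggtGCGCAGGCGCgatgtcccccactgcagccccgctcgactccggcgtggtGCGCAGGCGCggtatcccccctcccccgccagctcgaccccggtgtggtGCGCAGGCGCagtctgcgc
NDUFAB1 holds neither motif, NDUFA11 holds 1 NRF1 match, COX5B holds 1 GABPA match, and SDHA holds 4 NRF1 matches.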

How the data were processed

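Polyadenylated tumour RNA was sequenced as 5 libraries with a stranded kit, per the labels. The authors deposited expected counts per gene symbol, estimates that can carry decimals, as 13 members do in at least 1 library. The submitters' processing notes name Subread 2.0.0 with featureCounts, TopHat2 2.1.1, SAMtools 0.1.18, Bowtie2 2.2.8 and the hg19 build. Not given in the sources used here were the annotation, the strand setting and how multi-mapping and mouse reads were treated. Counts were rounded. filterByExpr kept 10005 genes, all 75 members among them. edgeR 4.0.16 (R 4.3.3; TMM, quasi-likelihood test, Benjamini-Hochberg over all genes tested, threshold 0.05) was fitted to all 5 libraries with 1 mean per diet, whose spread comes from the methionine-free pair (1 residual degree of freedom), and as an additive model (2 degrees). DESeq2 1.42.0, limma-voom (limma 3.58.1), library-total scaling, no filter, a length correction (loess, span 0.5) and omission of either replicate were alternatives. In the model with 1 mean per diet, edgeR's prior degrees of freedom were infinite, so each gene took a spread shared across genes. Medians and size-rule differences use log2 CPM with a prior count of 2. Counting intervals are at 95%, and a count of 0 allows 3 counts. Lengths come from GENCODE 29, matched by symbol. The test was tried on simulated data with 9659 genes, where it made 3 false calls.

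The rule for naming members took any that passed the threshold, which none did, and any beyond the size rule. It also took the 3 of smallest p or largest difference in each direction, core subunits and tissue isoforms. Others were added after their values were seen. Members and gene lists were chosen with earlier results of these data known. Some genes under this rule are not reported here.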

Additional observations from a re-analysis of the deposited data

Results flagged for a closer look

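The difference made by leaving out methionine was not the same with and without tryptophan and niacin for NDUFA4L2 (interaction 3.73 on the log2 scale, SE 0.714, edgeR adjusted p = 0.000184), which stood at 165 CPM on normal food against 82.4 and 98.3 without methionine, and at 18.8 without tryptophan and niacin against 138 without all 3. The same held for BNIP3L, a mitophagy receptor (interaction 3.70, SE 0.784, edgeR adjusted p = 0.00149), at 103 CPM against 43.0 and 33.3, and at 12.5 against 61.3. Neither interaction passed with DESeq2 (adjusted p = 0.726 and 1.00), and both passed with limma-voom (0.000881 and 0.0131). Both genes lie outside the 75 members, and each of the lone libraries had no replicate check. The interaction splits the libraries as the title styles do. An interaction of the diets therefore cannot be told apart from handling if the styles mark a difference.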

How the results depend on the processing

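Counts of members called stayed at 0 under all 68 alternatives run, and the 6 medians changed by up to 0.38 over 42 alternatives. Leaving out replicates 1 and 2 in turn gave medians from 0.25 to 0.83 for methionine-free against normal food, from −0.86 to −0.29 for the combined omission against methionine-free and from −0.76 to −0.13 for tryptophan/niacin-free against methionine-free; in the additive model it left 0 members called. Where the model with 1 mean per diet loses a replicate it has no residual degrees of freedom, so that its tests were not run. Members higher at an unadjusted p under 0.05 in methionine-free food ranged from 0 to 17 over the alternatives in place of 19. Of 214 values of single genes, 209 kept their direction and side of the threshold. The reversed ones were all near 0: NDUFA8 in methionine-free against normal food by limma-voom (0.00042), SDHA for methionine omission in the additive model without methionine-free replicate 2 (0.012; −0.094 without replicate 1) and NDUFA10 for tryptophan and niacin omission without replicate 1 (−0.0026; 0.26 without replicate 2); the cause was not tested. NDUFA4L2 and BNIP3L lost their calls with DESeq2. Scaling to the library total moved the median of all genes by −0.06 for methionine-free against normal food, where the members' median became 0.44. It moved it by 0.10 for tryptophan/niacin-free against methionine-free food, where that became −0.36. The moves were −0.12 for replicate 2 against normal food and −0.11 for replicate 2 against replicate 1. The length correction gave members' medians of 0.25, −0.23 and −0.09 in the 3 comparisons with methionine-free food. No paired analysis was possible because only 1 diet has a second library. With 1 residual degree of freedom and these depths, 2-fold changes were seldom called on simulated data.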
